A study of Mus musculus with 16 samples.

Results

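Immediate early genes were followed here in mouse ventricle, 1 week after pressure overload, through the probes for Fos, Fosb, Jun, Junb, Egr1, Atf3, Ier2, Myc, Klf4 and Phlda1. All non-control probes whose gene name was one of these 10 genes or a synonym were taken, which gave 10 of 27670 named genes and 14 of the 41174 non-control probes on the array. Of the 14 probes, 9 passed the filter on dim signal and were tested among 14684 probes; these 9 stand for 8 of the 10 genes. The study compared 129Sv mice in 4 groups of 4 hearts: CHIP-/- with TAB, CHIP-/- with sham surgery, wild type with TAB, and wild type with sham surgery, all sampled 1 week after surgery. TAB, aortic banding, narrows the aorta so that the ventricle pumps against a raised pressure. CHIP, the product of Stub1, works with heat shock proteins as a co-chaperone and attaches ubiquitin to their clients. Each heart RNA (Cy5) shared an array with a reference RNA (Cy3) from neonatal whole bodies of mixed 129Sv and C57BL/6 background, and values are log2 ratios of heart over reference. A log2 ratio is read for 1 probe across hearts and never between probes, since each probe has its own reference level.

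Immediate early genes are switched on within minutes of a stimulus without new protein synthesis, largely through kinases that act on serum response factor, its ternary complex partners and CREB. Many encode transcription factors: Fos and Jun proteins pair to form AP-1, and Egr1, Atf3, Myc and Klf4 bind their own sites. In heart muscle they are known for a fast and short rise after a load is applied.

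On the arrays, 27.0% to 37.7% of heart spots were well above background, against 56.6% to 62.4% of reference spots. The CHIP-/- sham arrays had 459, 55, 291 and 109 outlier spots (replicates 1 to 4), against 3 to 22 on the other arrays. Their reference shares were 56.6% to 59.2%, against 58.7% to 62.4% on the others. Whether this bears on comparisons with CHIP-/- sham was not tested. The Stub1 probe averaged -1.32 ± 0.12 in CHIP-/- TAB and -1.33 ± 0.06 in CHIP-/- sham, against averages of 0.01 ± 0.29 for wild-type TAB and 0.37 ± 0.06 for wild-type sham (SD, n = 4 each), so it was lower in all 8 CHIP-/- hearts than in any wild-type heart; the position of this probe relative to the deletion is unknown here. Every slide carried the 4 hearts of a single group, and an effect of slide cannot be told apart from one of group. All heart signals in the 4 CHIP-/- TAB files were rounded to 3 significant digits, against at most 4.15% of signals with so few digits in the other files. The atrial light chain Myl7 was high on 3 sham arrays (2.20 in CHIP-/- sham replicate 1, and 3.82 and 1.89 in wild-type sham replicates 1 and 3), and 3 other sham arrays (CHIP-/- sham replicates 2 and 4 and wild-type sham replicate 4) carried Y-linked transcripts. On those Y-linked arrays Xist was -3.27 to -3.20, against -0.41 to 0.16 on all others, TAB arrays included. By these transcripts, sex was not balanced between sham and TAB. Where a member's call between 2 groups or for the interaction changed without either set, the value without it stands beside the result.

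Promoter windows of 300 bases (250 before and 50 after the RefSeq gene start, build GRCm38.p6) were used for 6 members. Those of Jun and Junb are shown because both encode AP-1 proteins, of which Junb passed the test for banding in CHIP-/- hearts and Jun did not. Capitals mark motif matches.
Jun, chr4:95052173-95052472, minus strand: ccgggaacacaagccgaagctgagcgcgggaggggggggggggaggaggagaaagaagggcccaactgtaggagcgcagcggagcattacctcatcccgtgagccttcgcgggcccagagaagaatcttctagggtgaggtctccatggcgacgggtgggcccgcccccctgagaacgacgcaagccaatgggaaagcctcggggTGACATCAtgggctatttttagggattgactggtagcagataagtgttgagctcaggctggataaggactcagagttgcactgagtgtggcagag
Junb, chr8:84978699-84978998, minus strand: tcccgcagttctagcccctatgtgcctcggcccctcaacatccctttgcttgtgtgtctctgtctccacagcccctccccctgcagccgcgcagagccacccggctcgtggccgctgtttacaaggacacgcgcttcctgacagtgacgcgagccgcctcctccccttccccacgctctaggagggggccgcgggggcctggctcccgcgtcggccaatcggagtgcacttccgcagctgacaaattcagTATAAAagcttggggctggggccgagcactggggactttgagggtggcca
In all, 8 motifs were searched on both strands. The first search held 6: the CRE TGACGTCA (in 1.79% of 32841 windows of all genes), the AP-1 site TGANTCA (7.81%), the CArG box bound by serum response factor (1.63%), the EGR site GCGNGGGCG (5.55%), the TATA box TATAAA (13.6%) and the E-box CACGTG (7.15%). No window of the 6 members (Fos, Fosb, Jun, Junb, Atf3 and Klf4) held a CRE, an AP-1 site or a CArG box. Egr1, Ier2, Myc and Phlda1 were not searched. Sites farther than 250 bases before a start were not searched either, so the genes may hold such sites elsewhere. The EGR site was in the windows of Fosb and Klf4, the TATA box in those of Fos and Junb, and the E-box in that of Klf4. A further 2 motifs, the CRE core TGACGT, which lies inside the CRE, and the AP-1 variant TGACATCA, were added after that result and after the windows had been read, so their matches are no independent observation. The CRE core (7.51% of all windows) was in the windows of Fos and Atf3, and the AP-1 variant (3.62%) was in that of Jun. In the printed windows the capitals are therefore the added AP-1 variant in Jun and the letters TATAAA in Junb. The Junb match begins at the annotated gene start itself (position 0), whereas that of Fos begins at -33. Whether the Junb match works as a TATA box was not tested.

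Junb, which encodes a Jun protein that pairs with Fos proteins, rose with banding in CHIP-/- hearts, and Jun did not pass the test in either genotype. The first Junb probe read 1.04, 0.75, 1.57 and 0.80 in CHIP-/- TAB, against 0.30, 0.02, 0.12 and -0.14 in CHIP-/- sham. Every banded CHIP-/- heart lay above every CHIP-/- sham heart. The difference was 0.97 on the log2 scale (SE 0.15, adjusted p = 9.9e-06, limma), a 1.96-fold rise. In wild type the same probe read 0.04, 0.55, 0.54 and 0.53 after TAB, against 0.32, -0.10, -0.04 and 0.37 after sham. The wild-type groups overlapped, replicate 1 of the banded hearts lying among the sham hearts, and the difference of 0.28 (SE 0.15) did not pass (adjusted p = 0.16). Without that heart it was 0.40 with adjusted p = 0.036. The array of that heart had the lowest share of heart spots well above background, 27.0%, against 31.7% to 35.2% on the other wild-type TAB arrays. Whether this bears on its Junb value was not tested. In tissue RNA of this kind, a change in the number of cells of a type and a change in RNA per cell cannot be told apart.

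A second Junb probe gave 1.08 ± 0.36 in CHIP-/- TAB against -0.05 ± 0.20 in CHIP-/- sham, and 0.50 ± 0.23 in wild-type TAB against 0.13 ± 0.26 in wild-type sham (SD, n = 4 each). Its rise in CHIP-/- hearts was 1.13 (SE 0.15, adjusted p = 1.1e-06), and its difference in wild type was 0.37 (SE 0.15, adjusted p = 0.054), which passed without wild-type sham replicate 1 or 4, wild-type TAB replicate 1 or CHIP-/- TAB replicate 2 or 3 (adjusted p = 0.015 to 0.047), and without the Y-linked arrays (0.46, adjusted p = 0.027). The response to TAB was larger in CHIP-/- than in wild type by 0.69 for the first probe (SE 0.21, adjusted p = 0.061) and by 0.76 for the second (SE 0.21, adjusted p = 0.037, limma interaction term). The first probe passed without CHIP-/- TAB replicate 2 or 4 or wild-type sham replicate 2 (adjusted p = 0.025 to 0.047). The call of the second ended in 15 of 28 alternatives, among them the one without the 3 Y-linked arrays (0.55, adjusted p = 0.34) and 9 that leave out a single heart (CHIP-/- TAB replicate 1 or 3, CHIP-/- sham replicate 2, 3 or 4, wild-type TAB replicate 1 or 3, wild-type sham replicate 1 or 4; adjusted p = 0.058 to 0.097). After TAB, Junb was higher in CHIP-/- than in wild type by 0.63 for the first probe (SE 0.15, adjusted p = 0.0070) and 0.58 for the second (SE 0.15, adjusted p = 0.011), without overlap. The second was not called without CHIP-/- TAB replicate 3 (0.43, adjusted p = 0.064) or wild-type TAB replicate 1 (0.47, adjusted p = 0.057), and the authors' series table called neither (adjusted p = 0.054 and 0.085).

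Jun, which also encodes a protein of AP-1, read 0.12, 0.06, 0.26 and 0.13 in CHIP-/- TAB, against 0.32, 0.14, 0.16 and 0.26 in CHIP-/- sham. These groups overlapped and differed by -0.07 (SE 0.09, adjusted p = 0.54). In wild type, Jun read 0.51, 0.44, 0.33 and 0.40 after TAB, against 0.75, 0.78, 0.28 and 0.51 after sham, a difference of -0.16 (SE 0.09, adjusted p = 0.18). Jun has 10 spots on each array, whose SD within an array had a median of 0.10. The SD between hearts was 0.23 in wild-type sham, 0.07 in wild-type TAB and 0.09 in each CHIP-/- group. The SD within an array is of single spots and that between hearts is of means over spots, so they are unlike measures. Without wild-type sham replicate 3 the wild-type difference was -0.26 and passed (adjusted p = 0.022).

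Between genotypes after TAB, every CHIP-/- heart lay below every wild-type heart in Jun, and the difference was -0.28 (SE 0.09, adjusted p = 0.054). It passed in 6 of 29 alternatives, among them the 3 that leave out wild-type sham replicate 1, 2 or 3 (adjusted p = 0.047, 0.045 and 0.024) and the one without the arrays high in Myl7 (adjusted p = 0.029). After sham the difference was -0.36 (unadjusted p = 0.00057, adjusted p = 0.14), and without wild-type sham replicate 3 it was -0.46 (adjusted p = 0.019).

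Fos and Fosb, which encode partners of Jun proteins, were too dim for the fit. The Fos probe was well above background on 3 of 16 arrays, 1 of them CHIP-/- TAB and 2 wild-type sham, and the Fosb probe on none. Fos read -0.38, -0.33, -0.23 and -0.57 in CHIP-/- TAB, against -0.61, -0.69, -0.75 and -0.52 in CHIP-/- sham. The groups overlapped, and an exact permutation test, two-sided, of the difference of 0.27 gave p = 0.0571, where 4 hearts against 4 cannot go below 0.0286. In wild type, Fos averaged -0.48 ± 0.05 after TAB and -0.44 ± 0.22 after sham (SD, n = 4 each). Over the 5 probes outside the fit and 4 comparisons, 20 such exact tests gave adjusted p of 0.613 to 1. With each p bounded at 0.0286, an adjusted p could pass only if many of the 20 tests reached that bound. The adjusted values therefore decide little. The spot signal of these 5 probes was 0.871 to 1.93 times the local background. A difference in them was not detectable at this signal, which does not show that there was none.

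**Figure D1:**
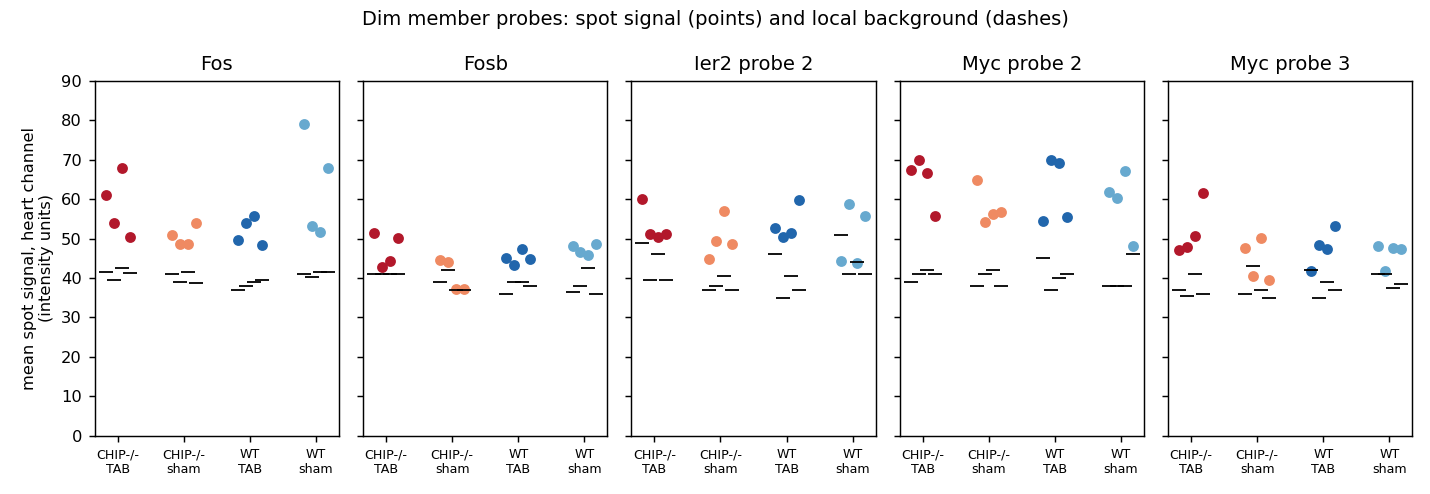
Mean heart-channel signal of the 5 dim probes (points, 1 per heart, in intensity units from 0) and their local background (dashes), by group. The highest point lies at 79.1 units (Fos, wild-type sham), and many lie close to the dash beside them.

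Egr1, a zinc finger factor that binds GC-rich promoter sites, rose with TAB in both genotypes. It read 0.37, -0.0049, -0.06 and -0.17 in CHIP-/- TAB, against -0.80, -0.77, -0.74 and -0.45 in CHIP-/- sham, with no overlap. The rise was 0.73 (SE 0.15, adjusted p = 0.00035). In wild type it read -0.42, -0.07, 0.34 and 0.05 after TAB, against -0.11, -0.46, -0.87 and -0.31 after sham, with overlapping groups. That rise was 0.41 (SE 0.15, adjusted p = 0.037) and ended in 12 of 29 alternatives, 5 of which leave out a single wild-type heart (sham replicate 2 or 3, or TAB replicate 2, 3 or 4, adjusted p = 0.054 to 0.18). Without sham replicate 3 it was 0.27, without TAB replicate 3 it was 0.29, and without the arrays high in Myl7 it was 0.36 (adjusted p = 0.13). The difference between the 2 responses, 0.32 (SE 0.21), did not pass (adjusted p = 0.49).

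Ier2, a short-lived nuclear protein of the early response, rose alike in size in both genotypes. It read -0.19, -0.24, -0.02 and -0.35 in CHIP-/- TAB, against -0.66, -0.65, -0.53 and -0.74 in CHIP-/- sham. In wild type it read -0.53, -0.21, 0.05 and -0.24 after TAB, against -0.68, -0.56, -0.54 and -0.60 after sham. Neither pair of groups overlapped. The rises were 0.45 in CHIP-/- (adjusted p = 0.00038) and 0.36 in wild type (adjusted p = 0.0042), each with SE 0.09. Both ended with median centring of the arrays, at 0.13 and 0.10. Their difference was 0.09 (SE 0.13, adjusted p = 0.81). A second Ier2 probe was well above background on no array.

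Myc, which drives growth and ribosome production, rose in CHIP-/- hearts. It read -0.50, -0.58, -0.52 and -0.78 in CHIP-/- TAB, against -0.85, -0.98, -0.95 and -0.94 in CHIP-/- sham, without overlap. The rise was 0.34 (SE 0.08, adjusted p = 0.0020), and 0.12 with adjusted p = 0.31 under median centring. In wild type Myc averaged -0.79 ± 0.05 after TAB and -0.99 ± 0.12 after sham (SD, n = 4 each), also without overlap. That difference of 0.20 did not pass (adjusted p = 0.069). The response to TAB differed between the genotypes by 0.14 (SE 0.12), which did not pass (adjusted p = 0.63, limma interaction term). The Myc probe was well above background on 11 of 16 arrays, and the other two Myc probes on 3 and on none.

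Klf4, a zinc finger factor known in endothelium and smooth muscle, passed narrowly in both genotypes. It read -0.83, -0.89, -0.89 and -0.96 in CHIP-/- TAB, against -1.13, -1.30, -1.27 and -0.91 in CHIP-/- sham. In wild type it read -0.86, -0.46, -1.05 and -0.55 after TAB, against -1.19, -0.94, -1.03 and -0.85 after sham. Both pairs of groups overlapped. The rises were 0.26 in CHIP-/- (adjusted p = 0.044) and 0.27 in wild type (adjusted p = 0.043), and under median centring the direction turned, at -0.23 and -0.13. Of 29 alternatives, the call held in 13 in CHIP-/- and 14 in wild type. Leaving out any 1 heart of CHIP-/- TAB, CHIP-/- sham replicate 1, 2 or 3, or wild-type sham replicate 3 ended the CHIP-/- call (adjusted p = 0.050 to 0.14), and leaving out wild-type TAB replicate 2 or 4, wild-type sham replicate 1, 2 or 3, or CHIP-/- sham replicate 1 ended the wild-type one (0.18 to 0.29, adjusted p = 0.050 to 0.18). Without the arrays high in Myl7 the rises were 0.27 in CHIP-/- (adjusted p = 0.061) and 0.16 in wild type (adjusted p = 0.40), and without the Y-linked arrays that in CHIP-/- was 0.30 (adjusted p = 0.054).

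Atf3, a stress-induced repressor of the ATF family, passed in neither genotype. It averaged -0.21 ± 0.21 in CHIP-/- TAB and -0.52 ± 0.20 in CHIP-/- sham; the wild-type means were -0.12 ± 0.13 after TAB and -0.04 ± 0.41 after sham (SD, n = 4 each). The differences were 0.30 (SE 0.15, adjusted p = 0.10) in CHIP-/- and -0.07 (SE 0.15, adjusted p = 0.74) in wild type. The wild-type value was -0.40 and passed without the 3 arrays high in Myl7 (adjusted p = 0.037), and was 0.09 without wild-type sham replicate 4 (adjusted p = 0.65). The CHIP-/- value was 0.46 and passed without the Y-linked arrays (adjusted p = 0.023). After sham, Atf3 differed between CHIP-/- and wild type by -0.48 (SE 0.15, adjusted p = 0.29), and by -0.71 without the arrays high in Myl7, which passed (adjusted p = 0.041).

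**Figure D2:**
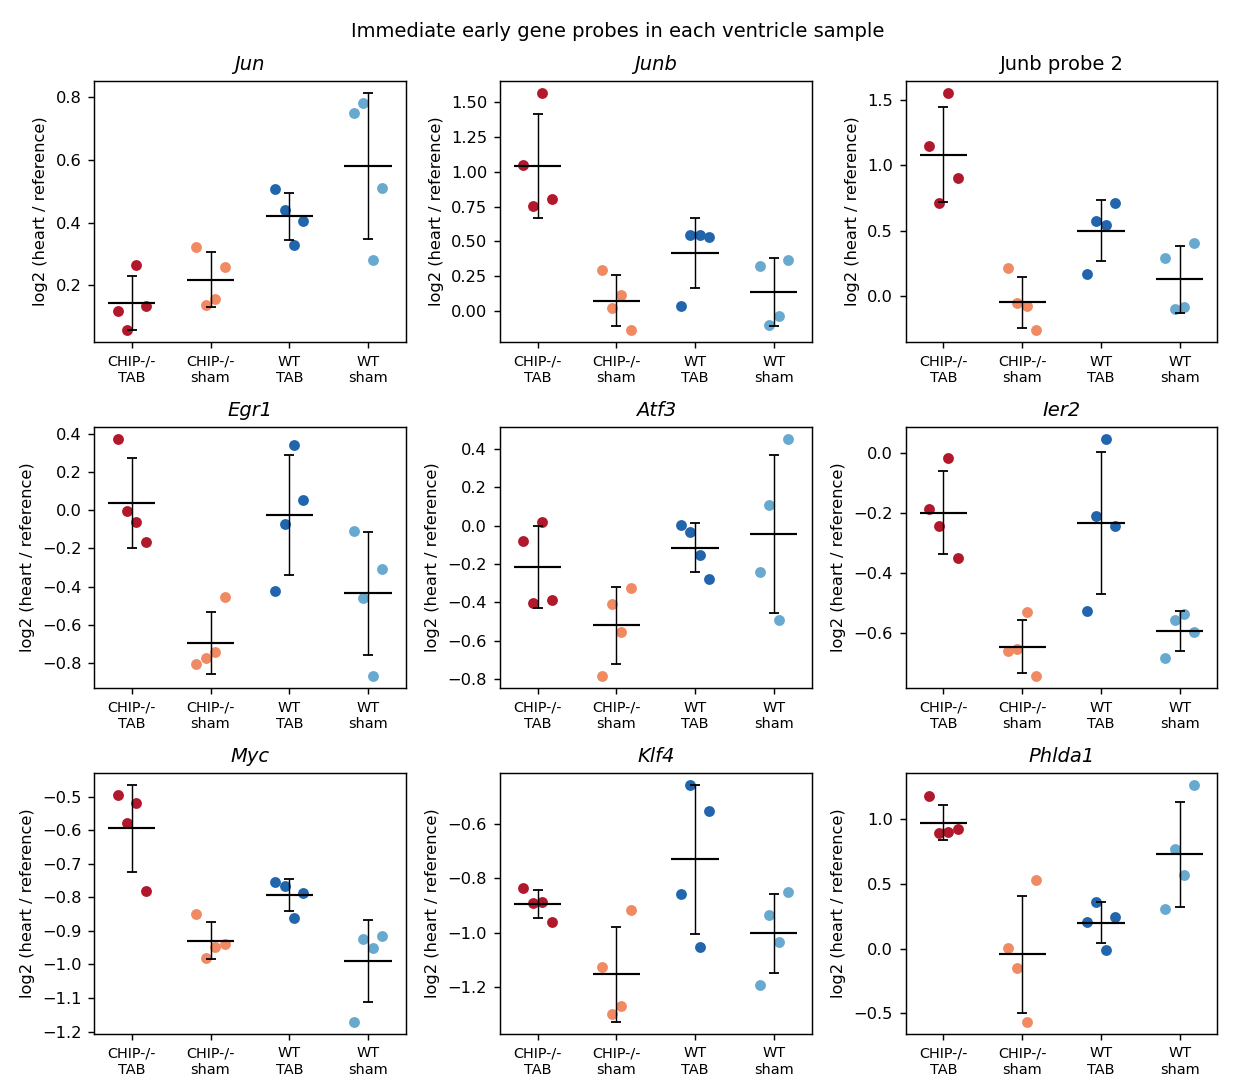
Log2 ratio of heart over reference for the 9 tested probes, 1 point per heart, in 4 groups of 4; the long line is the group mean and the bars are 1 SD, and each panel has its own scale. In the Phlda1 panel the CHIP-/- TAB hearts sit between 0.89 and 1.17 and the wild-type TAB hearts between -0.01 and 0.36.

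Phlda1, a pleckstrin homology-like domain protein linked to cell survival, moved in opposite directions in the 2 genotypes. It read 1.17, 0.89, 0.90 and 0.92 in CHIP-/- TAB, against 0.0046, -0.15, -0.57 and 0.53 in CHIP-/- sham, without overlap. The rise was 1.02 (SE 0.17, adjusted p = 3.8e-05), or 2.02-fold, and it passed in all 29 alternatives (0.66 to 1.25). In wild type Phlda1 read 0.20, 0.36, -0.01 and 0.25 after TAB, against 0.30, 0.76, 0.57 and 1.26 after sham. These groups overlapped by 1 sham heart, replicate 1. The fall was -0.53 (SE 0.17, adjusted p = 0.021). It ended without wild-type sham replicate 4, the highest heart (-0.35, adjusted p = 0.11), without wild-type TAB replicate 3 (-0.46, adjusted p = 0.068), with Agilent's processed signals (-0.51, adjusted p = 0.071) and with the authors' series table (-0.53, adjusted p = 0.11). It was -0.81 without the arrays high in Myl7 (adjusted p = 0.0044) and -0.35 without the Y-linked arrays (adjusted p = 0.039).

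The response of Phlda1 to TAB was higher in CHIP-/- than in wild type by 1.54 (SE 0.24, adjusted p = 0.00086), and this passed in all 29 alternatives, between 1.36 and 1.85. By its unadjusted p it was the 29th of 14684 probes. Among all probes, 8 (0.0545%) fell with TAB in wild type and rose in CHIP-/-, and 19 did the reverse. By mean level the groups ran from CHIP-/- TAB (0.97 ± 0.14) through wild-type sham (0.72 ± 0.41) and wild-type TAB (0.20 ± 0.16) to CHIP-/- sham (-0.05 ± 0.45; SD, n = 4 each). The first pair in this order overlapped, as did the second and the last pair.

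Between genotypes, Phlda1 was higher in CHIP-/- than in wild type after TAB, by 0.77 (SE 0.17, adjusted p = 0.0047), with no overlap. After sham it had the opposite sign, -0.77 (SE 0.17, unadjusted p = 0.00017), and did not pass (adjusted p = 0.089). That sham difference passed without the 3 arrays high in Myl7 (-1.08, adjusted p = 0.029), without the 3 Y-linked arrays (-0.83, adjusted p = 0.028), without wild-type sham replicate 1 (-0.91, adjusted p = 0.030) and without CHIP-/- sham replicate 4 (-0.96, adjusted p = 0.0058). After TAB the authors' series table gave 0.83 with adjusted p = 0.050, which did not pass.

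**Figure D3:**
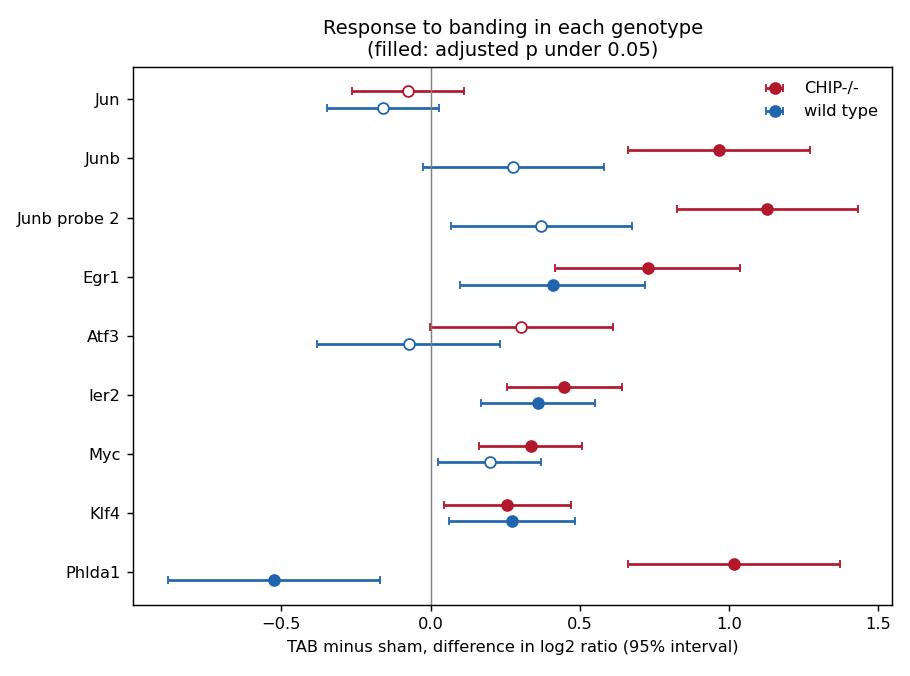
Difference in log2 ratio between TAB and sham for each tested probe, in CHIP-/- (upper mark of each pair) and wild type (lower mark), with 95% intervals; filled marks passed at an adjusted p of 0.05. Phlda1 lies at 1.02 in CHIP-/- and -0.53 in wild type, while Klf4 lies at 0.26 and 0.27 and turns negative in both under median centring.

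Counted over the 9 tested probes, 7 rose and 0 fell with TAB in CHIP-/- hearts, where 44% of all tested probes were called (21.3% up and 22.7% down). In wild type 3 rose and 1 fell, where 33.4% were called (16.3% up and 17.1% down). The median difference of the 9 probes was 0.45 in CHIP-/- and 0.27 in wild type, against medians of -0.02 and -0.01 over all probes. Groups did not overlap, upward, for 6 of the 9 probes in CHIP-/- (19.4% of all probes) and for 2 in wild type (14.6%). Between genotypes after TAB, 3 probes were called up, the 2 of Junb and that of Phlda1, where 9.91% of all probes were called (4.43% up). Those 3 did not overlap upward (5.59% of all probes), nor did Jun downward (6.29%). After sham, limma called 0 of the 9, with 3 at an unadjusted p under 0.05 (Jun, Atf3 and Phlda1); over all probes 0.0341% were called and 7.68% had such an unadjusted p. No member's sham groups were free of overlap (5.09% of all probes were). The interaction was called for 2 of the 9, against 4.37% of all probes. The members, and the gene lists below, were chosen with earlier results of these data known. A count or median that departs from that of all probes is therefore no independent observation. Median centring in place of loess moved the median of all probes to -0.21 in CHIP-/- and -0.18 in wild type, and the share of calls that were up to 11.4% and 7.88%, against 48.4% and 48.8%. Directions of small size are therefore relative to the loess fit.

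The 5 probes nearest to Phlda1 across the 16 arrays, by mean absolute difference of values centred on each probe's mean, were those of Tgm2 (0.229), Ppp1r3c (0.243), Atxn10 (0.245), Prkab2 (0.252) and Cpxm1 (0.259). All 5 rose in CHIP-/- hearts, by 0.52 to 0.66. None was called in wild type, where their differences were -0.14 to -0.01. They were chosen for their likeness, so these values describe them.

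**Figure D4:**
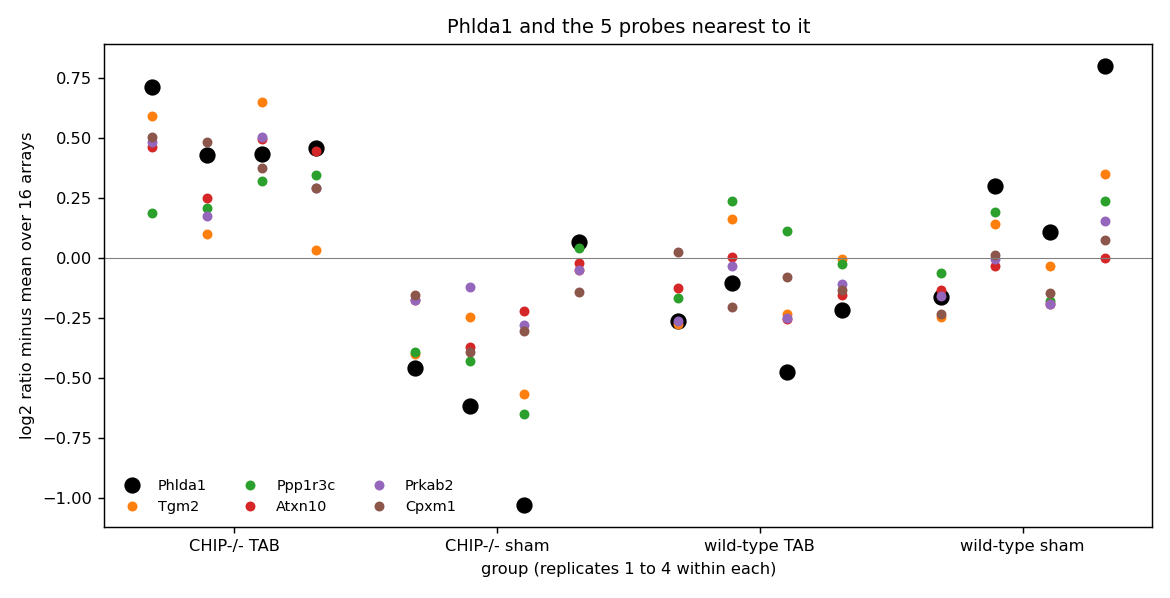
Log2 ratio minus the probe's mean over 16 arrays for Phlda1 (large black points) and the 5 nearest probes (small coloured points), replicates 1 to 4 side by side within each group. All 6 probes are above 0 on the 4 CHIP-/- TAB arrays, and Phlda1 has the widest range.

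Phlda3, a relative of Phlda1 that restrains Akt signalling, rose in both genotypes. It averaged -0.12 ± 0.10 in CHIP-/- TAB and -1.30 ± 0.06 in CHIP-/- sham; the wild-type means were -0.58 ± 0.16 after TAB and -1.21 ± 0.11 after sham (SD, n = 4 each). The rises were 1.18 and 0.63, and their difference of 0.55 passed (SE 0.11, adjusted p = 0.0043). Phlda2 did not pass the filter.

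Among other immediate early genes, 39 of the 47 listed were tested. In CHIP-/- hearts 18 rose and 4 fell with TAB, and in wild type 9 rose and 3 fell, with medians of 0.24 and 0.09. Over all tested probes 44% were called in CHIP-/- (21.3% up, 22.7% down) and 33.4% in wild type (16.3% up, 17.1% down). Ccn2, a matrix-associated growth regulator, rose by 2.27 in CHIP-/- (adjusted p = 6.7e-10) and 1.08 in wild type (adjusted p = 5.6e-05), with an interaction of 1.19 (adjusted p = 0.0087). Dusp6, a phosphatase of ERK, rose by 0.95 in CHIP-/- and 0.65 in wild type, and Hbegf, an EGF receptor ligand, by 1.06 in CHIP-/- and 0.83 in wild type. Klf2, an endothelial zinc finger factor, rose by 0.55 in CHIP-/-, differed by 0.12 in wild type (adjusted p = 0.11) and was called for the interaction (0.43, adjusted p = 0.0042). Dusp1, a phosphatase of stress kinases, fell by 0.41 in CHIP-/- (adjusted p = 0.0050) and differed by -0.16 in wild type (adjusted p = 0.27). Its interaction of -0.26 did not pass (adjusted p = 0.44, limma). The nuclear receptor gene Nr4a1 differed by 0.23 in CHIP-/- (adjusted p = 0.52) and -0.27 in wild type (adjusted p = 0.49).

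**Figure D5:**
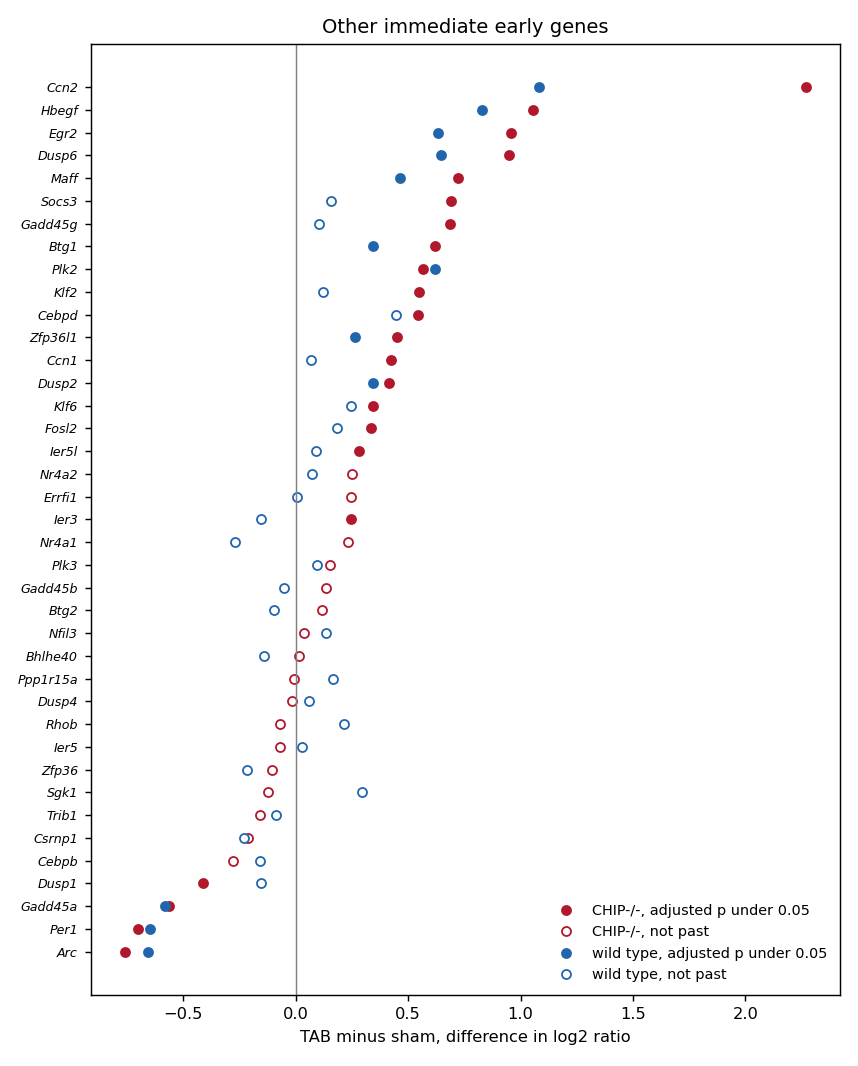
Difference in log2 ratio between TAB and sham for the 39 tested genes of the list of other immediate early genes, CHIP-/- in red and wild type in blue, ordered by the CHIP-/- value; filled marks passed at an adjusted p of 0.05. Ccn2 lies farthest right, at 2.27 in CHIP-/- and 1.08 in wild type.

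The counts for upstream and downstream lists stand against the same 44% of all probes called in CHIP-/- (21.3% up) and 33.4% in wild type (16.3% up). Of 24 tested kinases and factors upstream, 6 rose and 5 fell in CHIP-/-, and 6 rose and 3 fell in wild type. Serum response factor (Srf) differed by -0.02 (adjusted p = 0.87) and -0.07 (adjusted p = 0.53), and the CREB relative Crem rose by 0.45 and 0.39. The kinase genes Map2k6 and Mapk14 fell in both genotypes (-0.60 and -0.27 in CHIP-/-, -0.31 and -0.20 in wild type). Of 10 tested AP-1 target genes, 7 rose in CHIP-/- and 6 in wild type, and none was called down. Timp1, an inhibitor of matrix proteases, rose by 2.89 in CHIP-/- and 1.58 in wild type (interaction 1.31, adjusted p = 0.011). Of 8 tested feedback inhibitors of ERK, 2 rose and 1 fell in CHIP-/-, and 1 rose and 1 fell in wild type.

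The partners and targets of the single factors are given against the same shares, 44% called in CHIP-/- and 33.4% in wild type. Of 6 tested AP-1 and Maf partners, 2 rose and 1 fell in each genotype, the small Maf gene Mafk rising by 0.43 in CHIP-/- and 0.33 in wild type. Of 16 tested Myc target genes, 5 rose and 1 fell in CHIP-/-, and 3 rose and 1 fell in wild type. Odc1, the first enzyme of polyamine synthesis, rose by 0.53 and 0.48. Eif4e was the 1 that fell (-0.61 in CHIP-/- and -0.40 in wild type). Of 9 tested Myc partners, 1 rose and 3 fell in CHIP-/-, and 1 rose and 1 fell in wild type; Max, the partner of Myc, fell by 0.29 in CHIP-/- and differed by -0.03 in wild type (adjusted p = 0.79). Of 11 tested genes of the Atf4 and Atf3 stress response, 5 rose and 2 fell in CHIP-/-, and 5 rose and 3 fell in wild type. Vldlr had the smallest adjusted p of this list in both genotypes and fell (-0.72 in CHIP-/- and -0.57 in wild type). Gdf15, a secreted stress signal, rose by 1.67 in CHIP-/- and 0.64 in wild type (adjusted p = 0.020), and Ddit3, a stress factor that pairs with Atf proteins, differed by 0.01 (adjusted p = 0.94) in CHIP-/- and -0.07 (adjusted p = 0.67) in wild type.

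Markers of other cell types also differed between the groups, and their part in the results above was not tested. Their counts stand against the same 44% of all probes called in CHIP-/- and 33.4% in wild type. The mean log2 ratio of 10 fibroblast markers ran from -0.15 to 0.05 in CHIP-/- TAB and -1.67 to -1.26 in CHIP-/- sham, and from -1.04 to -0.41 in wild-type TAB and -1.40 to -0.95 in wild-type sham; 8 of 10 rose in CHIP-/- and 6 of 10 in wild type. For 11 macrophage markers the ranges were 0.52 to 0.71, -0.17 to -0.04, 0.33 to 0.42 and -0.03 to 0.06 in the same order of groups, with 10 and 8 called up. For 9 smooth muscle and pericyte markers they were 0.28 to 0.59, -0.43 to -0.40, 0.12 to 0.37 and -0.37 to -0.25. Ventricular muscle markers, 10 tested, lay at 3.95 to 4.11, 3.17 to 3.66, 4.07 to 4.18 and 3.75 to 4.00, but 4 rose and 6 fell in CHIP-/-, and 3 rose and 4 fell in wild type. Those that rose include Nppa, Nppb and Myh7 in both genotypes (2.87, 2.73 and 2.11 in CHIP-/-, and 1.73, 1.82 and 1.59 in wild type), named after their values were seen. For 10 endothelial markers the ranges were 0.80 to 0.95, 0.68 to 0.80, 0.88 to 1.19 and 0.68 to 0.82, so wild-type TAB reached highest. Of these markers 5 rose and 2 fell in CHIP-/-, and 7 rose and 1 fell in wild type. Of 8 neutrophil markers 2 passed the filter, and of 10 lymphocyte markers 0 did.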

How the data were processed

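RNA from 16 mouse ventricles was hybridised against a common reference on two-colour Agilent arrays. The deposited scanner files hold intensity values per spot, which the authors made with the scanner's extraction software, per the file headers; the authors' deposited series table of log2 ratios was used as an alternative. Mean signals were background-corrected (normexp, offset 50, on the median local background), normalised by loess within arrays with controls at weight 0, and stripped of outlier spots. The offset shrinks differences of dim probes. Spots of a probe were averaged. Probes whose heart signal was well above background on 4 or more arrays, with values on 15 or more, were fitted in limma 3.58.1 (R 4.3.3) with a mean per group and an intensity trend, and p-values were adjusted over 14684 probes by Benjamini-Hochberg. The fit was tested on simulated data. Dim member probes had exact permutation tests. The number of arrays limits the precision; labels call the replicates biological. Same-numbered samples did not deviate together (correlations -0.171 to 0.153), so numbers were not taken to pair hearts.

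All members and every probe of them are named; from each other list at most 3 genes per comparison with the smallest adjusted p, plus Srf, Dusp1, Nr4a1, Phlda2, Phlda3, Ddit3 and Stub1. Members and lists were chosen with earlier results of these data known. Motif letters were searched in RefSeq promoter windows of GRCm38.p6 (Python 3.11.15); 6 motifs were searched first, and 2 were added once the windows had been read.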

Additional observations from a re-analysis of the deposited data

Results flagged for a closer look

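Over 56 groups of 4 values, about 1 in 20 is marked by chance, and 5 had a heart far from the other 3. For Phlda1, CHIP-/- TAB replicate 1 (1.17) lay above the other 3 hearts. For Junb, wild-type TAB replicate 1 (0.037) lay below the others. For Myc, wild-type sham replicate 1 (-1.17) was the lowest. The dim probe of Fosb in wild-type TAB replicate 2 (-0.19) and the dim second probe of Ier2 in CHIP-/- TAB replicate 3 (-0.24) were the others.

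The response to TAB differed between CHIP-/- and wild type by the limma interaction term for Phlda1 (1.54) and for the second Junb probe (0.76). The call of that Junb probe ended in 15 of 28 alternatives, and the first Junb probe did not pass (0.69, adjusted p = 0.061).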

How the results depend on the processing

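There were 29 alternatives to the processing and model, 16 of which leave out 1 heart. Phlda1's rise in CHIP-/- and its interaction passed in all 29, the limma interaction with an adjusted p of up to 0.042. The CHIP-/- rises of the first Junb probe and of Egr1 also passed in all 29, and that of the second Junb probe in all 28 that hold it. Of the wild-type TAB responses, member probes called, 4 as reported, numbered 2 with Agilent's processed signals, median centring, no signal filter or no intensity trend, and 1 with the series table; leaving out 1 heart gave 2 to 6. All probes called there fell to 3066 without the 3 arrays high in Myl7. Median centring turned wild-type Junb (-0.024) and Klf4 (-0.13), Klf4 in CHIP-/- (-0.23), and the sham genotype differences of Junb (0.0060) and Ier2 (0.014); wild-type Atf3 was 0.092 without the Y-linked arrays and -0.22 to 0.092 without 1 heart. For CHIP-/- against wild type after sham, 5 probes were called as reported, 2 with processed signals, 29 with median centring, 420 with Aquantile and scale, 8 with no signal filter, 3 with the brightest probe per gene, 2 with the series table, 47 with only the groups compared, 20 without the Myl7 arrays, 14 without the Y-linked arrays and 2 to 20 without 1 heart. Members called there, 0 as reported, were 1 with median centring, Aquantile and scale or no Y-linked arrays, 2 without the Myl7 arrays and 0 to 1 without 1 heart. Small sham differences also turned for Myc (-0.034 with Aquantile, -0.036 without the Myl7 arrays) and Junb (0.15 and, for probe 2, 0.032 without the Y-linked arrays; -0.14 to 0.013 without 1 heart). After TAB, genotype calls were 501 with median centring and 905 to 1589 without 1 heart; members called were 0 with the series table and 2 to 4 without 1 heart. Without 1 heart that difference ran from -0.071 to 0.18 for Egr1 and -0.064 to 0.13 for Ier2. Interaction calls, 641 as reported, were 198 with median centring, 1309 with Aquantile and scale, 103 with the series table, 390 with no intensity trend, 110 without the Y-linked arrays and 371 to 875 without 1 heart. Members called for it were 1 with processed signals, median centring, the brightest probe per gene, the series table, no intensity trend, the replicate block or no Y-linked arrays, and 1 to 3 without 1 heart. The Klf4 interaction was 0.061 with Aquantile, 0.10 without the Myl7 arrays and -0.12 to 0.076 without 1 heart, and that of Ier2 -0.011 to 0.18. The cause was not tested for any of these, apart from fewer arrays or features where an alternative removes them.

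The replicate number as a block also ended the wild-type call of Egr1 (0.41, adjusted p = 0.052) and the interaction of Junb probe 2 (0.76, adjusted p = 0.051); the numbers are not taken to pair hearts. Slide as a block could not be fitted, since each slide holds 1 group. Signal near background limits what Fos, Fosb and the dim probes of Ier2 and Myc can show, and 4 hearts a group limit the rest.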
